A study of Mus musculus with 12 samples.

Results

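The transcripts of 10 genes listed as negative regulators of receptor signalling were examined in mouse natural killer (NK) cells. They are the protein tyrosine phosphatases Ptpn6, Ptpn11, Ptpn22 and Ptpn2, the inositol lipid phosphatase Inpp5d, the ubiquitin ligases Cbl and Cblb, the Cbl partner Ubash3b, and the diacylglycerol kinases Dgka and Dgkz. They were chosen by gene symbol, not by their levels, and make up 10 of the 55487 features in the deposited table. All 10 passed the filter on low values, which left 12364 genes for testing.

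The 12 samples were NK cells labelled HD IL-15, where HD is not spelled out, and primed with IL-15, a cytokine that NK cells depend on, from mice of strain B6.129S4-Ifngtm3.1Lky/J with the genotype mut/mut. The strain reports transcription of Ifng, the interferon gamma gene, by yellow fluorescence (YFP), and both gene copies were modified in every group, the unstimulated one included. The groups were unstimulated cells, for which the labels give no time, cells given anti-NK1.1 for 6 hours that were YFP-, and cells from the same treatment that were YFP+, with 4 samples each. NK1.1, the product of Klrb1c, is an activating receptor on NK cells of this strain background. The replicate labels f2, m2, m3 and m4 occur in each group, and per-sample values are given in that order throughout. The labels carry no ages, do not say whether unstimulated cells were sorted by the reporter, and do not say whether samples were from separate mice, so p-values measure the spread between these samples only.

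Activating receptors on NK cells signal through Src-family and Syk-family tyrosine kinases, phosphoinositide 3-kinase and phospholipase C gamma, which makes the second messenger diacylglycerol. The 10 products belong to classes that act on different steps of receptor signalling. Tyrosine phosphatases remove the phosphate groups that tyrosine kinases add, and Inpp5d (SHIP) dephosphorylates the lipid product of phosphoinositide 3-kinase. Cbl proteins mark phosphorylated signalling proteins with ubiquitin, and diacylglycerol kinases convert diacylglycerol to phosphatidic acid. In NK cells the phosphatases encoded by Ptpn6, Ptpn11 and Inpp5d are best known as effectors of inhibitory receptors, to whose phosphorylated tails they bind.

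Levels are given as CPM, read counts scaled to a common library total, or as their log2, as deposited. Libraries held 32.1 to 54.2 M reads (M for mega), so that 3 reads, taken as the smallest level that can be shown, was 0.0553 to 0.0933 CPM, and the lowest value of any of the 10 genes rested on 39 reads. As a check of the group labels, Ifng was at 3.67 to 4.19 CPM in unstimulated, 36.6 to 54.5 CPM in YFP- and 303.8 to 343 CPM in YFP+ samples. Klrb1c was at 290.2 to 327 CPM, 57.6 to 86.6 CPM and 3.70 to 8.97 CPM in the same order. All 10 NK cell markers were detected in every group. They summed to 13400 to 16070 CPM in unstimulated, 9489 to 12000 CPM in YFP- and 10080 to 14040 CPM in YFP+ samples. Single NK cell markers moved in both directions. From unstimulated to YFP- samples the range of Tbx21 was 29.0–38.5 and then 66.8–93.3 CPM, and that of Eomes 101.5–114.8 and then 57.5–84.3 CPM. Of the 5 B cell markers, Pax5 and Ms4a1 were at or under 3 reads in every library, as were Adgre1, S100a8 and S100a9 of the 7 myeloid markers and Siglech of the 4 dendritic cell markers. Others were detected, such as Cd79b at 1.054 to 3.329 CPM and Itgam at 5.096 to 7.83 CPM in unstimulated samples. The B cell markers summed to 1.782 to 4.192 CPM in unstimulated, 0.9216 to 2.858 CPM in YFP- and 0.4696 to 1.369 CPM in YFP+ samples. The myeloid markers summed to 7.405 to 9.918, 2.997 to 6.06 and 1.63 to 4.037 CPM in that order. The summed level of 8 T cell markers was 125 to 174 CPM in unstimulated, 169 to 268 CPM in YFP- and 234.5 to 349 CPM in YFP+ samples, with Cd3e and Cd8b1 at or under 3 reads in all YFP+ libraries. Its members moved in opposite directions: from unstimulated to YFP+ samples the range of Cd28 was 61.4–78.8 and then 142–260.3 CPM and that of Trac 6.83–8.47 and then 40.4–54.5 CPM, while Cd3g was at 30.9–79.4 and then 11.7–31.9 CPM and Cd3d at 14.2–25.9 and then 7.25–13.8 CPM. Sums for 4 dendritic cell markers were 2.16 to 3.57, 18.8 to 22.1 and 7.05 to 13.5 CPM, and for 4 innate lymphoid cell markers 8.87 to 18.5, 15.9 to 30.3 and 2.98 to 5.68 CPM. The part of these shifts in the results was not tested, and in bulk samples fewer cells of a type and less RNA per cell cannot be told apart.

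Promoter windows from RefSeq (GRCm38.p6, 300 bases across the annotated start, most of them upstream of it) were read for 9 of the 10 genes, all but Ptpn2, 15 windows in all. The windows of Ptpn6, Inpp5d and Ptpn11 are printed because the first 2 genes changed in every comparison and Ptpn11, the closest relative of Ptpn6, in none, and because each has a single annotated start. They were selected with those results known. Each is written 5′ to 3′ on the strand of the gene, with CpG dinucleotides in capitals.
Ptpn6, chr6:124738660-124738959, minus strand: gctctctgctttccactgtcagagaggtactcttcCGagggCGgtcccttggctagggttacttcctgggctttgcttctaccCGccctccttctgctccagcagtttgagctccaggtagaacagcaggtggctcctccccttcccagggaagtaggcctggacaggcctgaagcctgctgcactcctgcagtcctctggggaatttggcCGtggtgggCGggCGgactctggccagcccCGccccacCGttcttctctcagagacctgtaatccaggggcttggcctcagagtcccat
Inpp5d, chr1:87620062-87620361, plus strand: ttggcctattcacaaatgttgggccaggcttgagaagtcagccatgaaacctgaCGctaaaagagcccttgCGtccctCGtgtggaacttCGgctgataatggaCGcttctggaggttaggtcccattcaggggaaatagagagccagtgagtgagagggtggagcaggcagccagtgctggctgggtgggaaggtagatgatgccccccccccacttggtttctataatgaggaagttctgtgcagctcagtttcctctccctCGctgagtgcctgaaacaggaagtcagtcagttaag
Ptpn11, chr5:121191348-121191647, minus strand: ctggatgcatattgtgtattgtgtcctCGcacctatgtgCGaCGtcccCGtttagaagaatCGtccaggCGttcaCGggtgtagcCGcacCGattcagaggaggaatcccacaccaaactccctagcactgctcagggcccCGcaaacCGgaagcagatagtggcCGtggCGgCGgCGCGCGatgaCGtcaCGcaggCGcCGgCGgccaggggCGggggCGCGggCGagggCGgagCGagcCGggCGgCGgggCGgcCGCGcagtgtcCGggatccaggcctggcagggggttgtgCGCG
The Ptpn6 window holds 8 CpGs and that of Inpp5d 6, close to the median of 7 over 32851 promoter windows of the same length, whereas the Ptpn11 window holds 37, a number reached by 5.58% of them. Among the other genes, the single window of Cbl holds 43 CpGs and that of Cblb 17. The 2 windows of Dgkz hold 10 and 43, the 4 windows of Dgka 4 to 28, the 2 of Ptpn22 3 and 6, and both of Ubash3b 5.

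Short motifs were searched on both strands of the 15 windows as a description. The core GGAAA bound by NFAT factors occurred in 11 windows of 8 genes, against 61.3% of all windows. Of the 9 genes only Ptpn11 had no match. Matches were found both for genes that changed, such as Ptpn6 and Inpp5d, and for Ubash3b, Dgkz and Ptpn22, which were not called. No match was found for the AP-1 motif TGANTCA (7.81% of all windows), the FOXO motif GTAAACA (3.65%), the EGR motif GCGTGGGCG (0.612%) or the NF-kappaB motif (4.79%). The RUNX motif TGTGGT (16.8%) matched 1 window of Ptpn22 and the E-box CACGTG (7.15%) 1 window of Dgka.

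Stimulation and the reporter sort separated these genes into unlike patterns. Ptpn6 was higher in stimulated than in unstimulated cells and highest in YFP- cells, Inpp5d and Dgka were lower in YFP- and lowest in YFP+ cells, and Cblb and Cbl were lower after stimulation. No call was made for Ptpn11, Ptpn22, Ptpn2, Ubash3b or Dgkz. A gene was called at a Benjamini-Hochberg adjusted p under 0.05 in limma, fitted to all 12 samples and adjusted over all 12364 genes. For YFP+ against YFP-, 3 of 10 genes were called, 0 higher and 3 lower, where 21.8% of all genes tested were called, 3.28% higher and 18.5% lower. For YFP- against unstimulated cells, 5 were called, 1 higher and 4 lower, against 51.1% of all genes, 30.2% higher and 20.9% lower. YFP+ against unstimulated cells also gave 5, 1 higher and 4 lower, against 60.8% of all genes, 27.5% higher and 33.3% lower. These counts are near the background in each comparison, and nothing particular to the list follows from them. The 3 comparisons share samples pairwise and are not independent of each other.

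The direction of calls over all genes depended on how libraries were scaled, which bears on small differences. As deposited, 405 genes were higher and 2286 lower in YFP+ than in YFP- cells, with a median log2 difference of -0.19. Centring each sample on its median gave 1505 and 1491, quantile normalization 1163 and 1430, and trimmed-mean scaling 1016 and 1675. For YFP- against unstimulated cells the split was 3735 higher and 2586 lower with a median of 0.14, and 3070 and 3445 when rRNA-like reads were left out of the totals together with those of Lars2, Mir6236 and Gm23935, a choice made after seeing the data. The 3 genes lower in YFP+ than in YFP- cells were also called under each of these scalings. The median over the 10 genes was -0.30 for YFP+ minus YFP-, 0.05 for YFP- minus unstimulated and -0.30 for YFP+ minus unstimulated, beside -0.19, 0.14 and -0.03 over all genes.

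**Figure D1:**
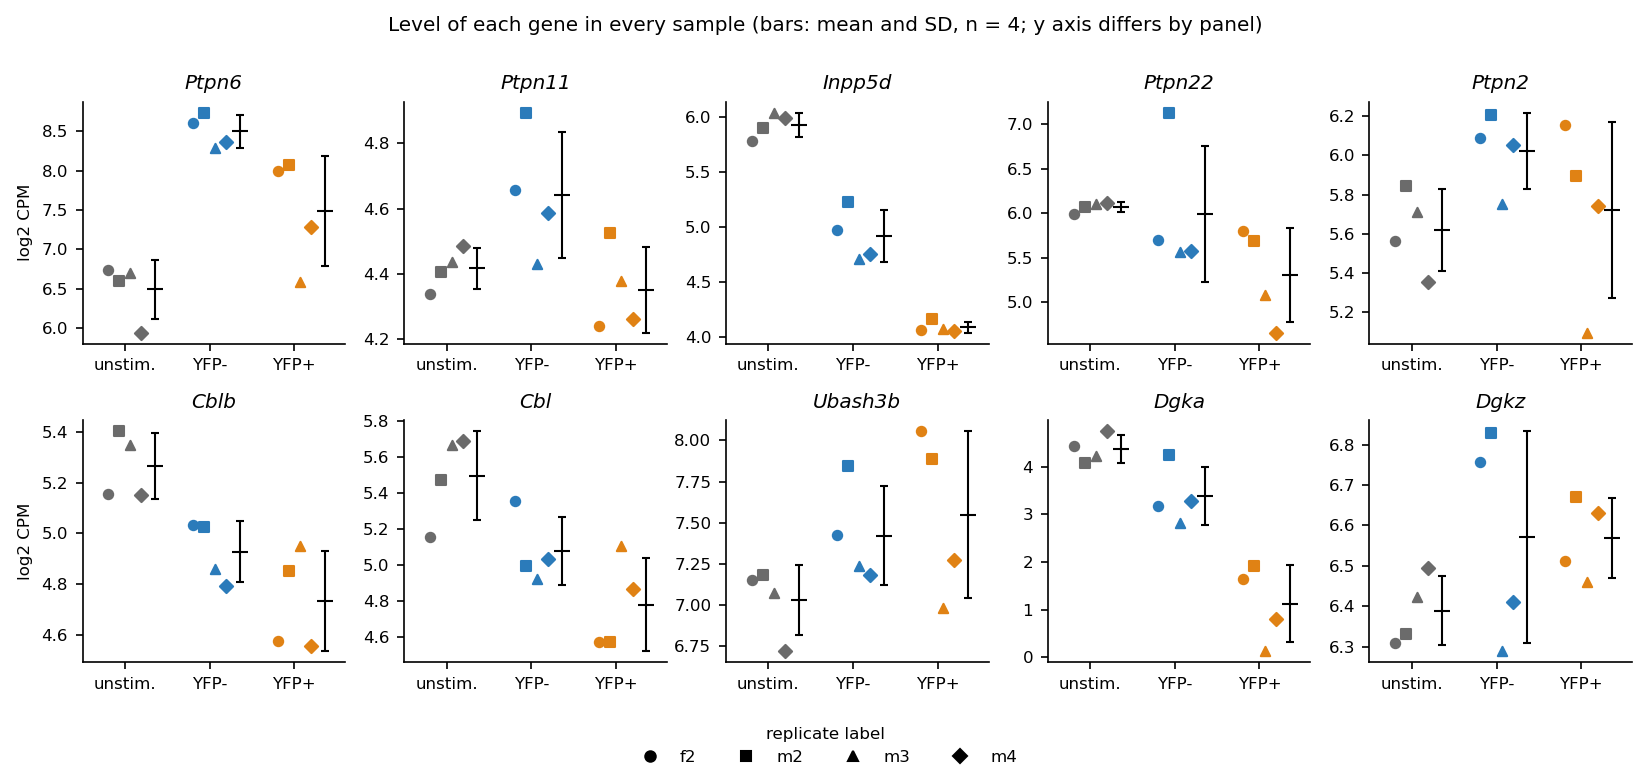
Level of each of the 10 genes in every sample, as log2 CPM on the y axis (the axis range differs by panel), for unstimulated, YFP- and YFP+ samples on the x axis. Symbols mark the replicate labels and bars the mean and SD of 4 samples. Ptpn6 is highest in YFP- samples, Inpp5d and Dgka step down from unstimulated to YFP- to YFP+, and the ranges of Ptpn11, Ptpn2, Ubash3b and Dgkz overlap between all groups.

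**Figure D2:**
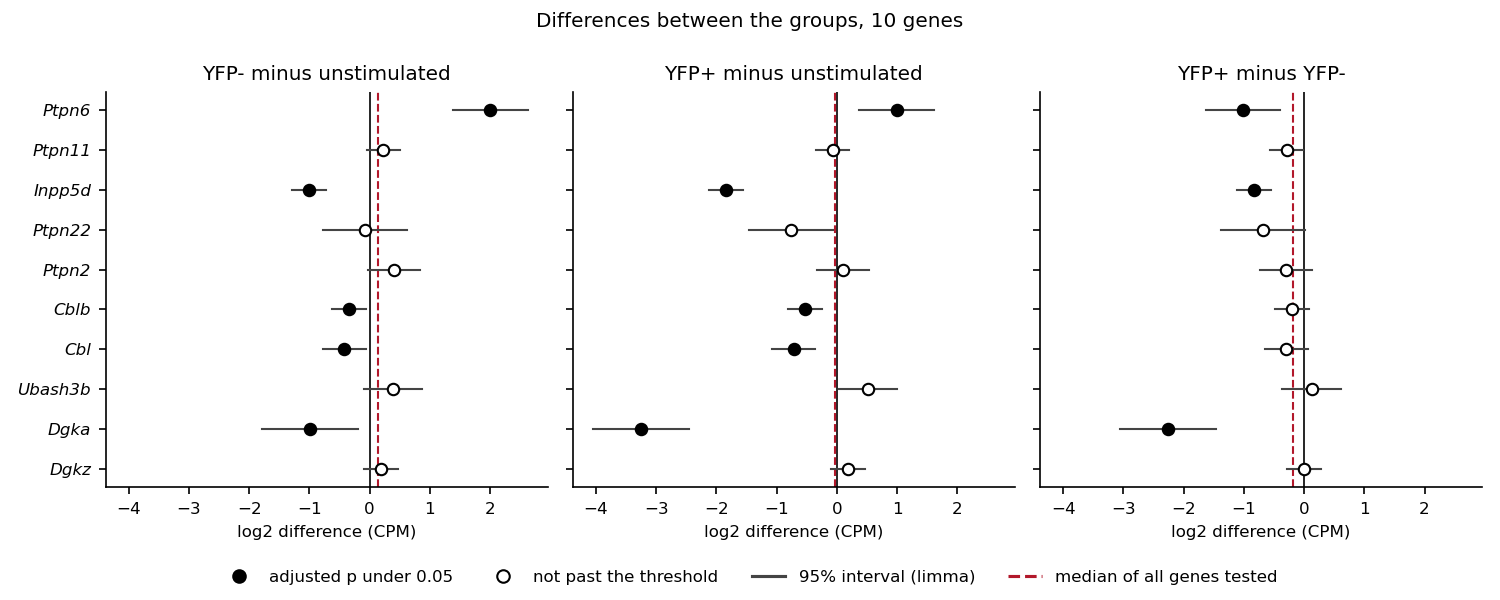
Differences between the groups in log2 CPM (x axis) for the 10 genes (y axis), 1 panel per comparison. Points are limma estimates with 95% intervals, filled where the adjusted p is under 0.05, and the dashed line is the median of all genes tested. Ptpn6 is the 1 gene with a filled point to the right, in both comparisons with unstimulated cells, and Dgka at -3.25 lies farthest to the left.

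Ptpn6 encodes SHP-1, the cytoplasmic tyrosine phosphatase recruited by inhibitory receptors for MHC class I (ENSMUSG00000004266; GRCm38 chromosome 6, 124720707 to 124738714, minus strand, protein coding). Its log2 CPM was 6.73, 6.59, 6.70 and 5.94 in unstimulated samples. YFP- samples were at 8.60, 8.74, 8.29 and 8.36. YFP+ samples were at 8.00, 8.07, 6.58 and 7.29. All 4 YFP- samples lay above the 8 others, while the YFP+ samples were spread widely, and m3 fell within the unstimulated range. Mean levels were 92.2 ± 20.9 CPM (SD, n = 4) in unstimulated, 364 ± 53.0 CPM in YFP- and 194 ± 82.8 CPM in YFP+ samples. In limma Ptpn6 was 4.01-fold higher in YFP- than in unstimulated cells, a log2 difference of 2.005 (SE 0.29, adjusted p = 7.19e-05). YFP+ exceeded unstimulated cells by 0.99 in log2 (SE 0.29, limma adjusted p = 0.00832). YFP+ fell short of YFP- cells by a log2 difference of -1.01 (SE 0.29, limma adjusted p = 0.0218), or -0.83 relative to the median of all genes.

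The higher level of Ptpn6 in YFP- than in unstimulated cells was called without any single replicate label, at log2 differences of 1.87 to 2.15. Its lower level in YFP+ than in YFP- cells was no longer called without the label m3 (-0.78, limma adjusted p = 0.0520), without m4 (-0.99, limma adjusted p = 0.0843) or without the YFP- sample m2 alone (-0.93, limma adjusted p = 0.0664). Leaving out only the YFP+ sample m3, which was lowest in its group, gave -0.71 with a limma adjusted p of 0.0365. The difference between YFP+ and unstimulated cells was not called without m2 (0.83, limma adjusted p = 0.0527) or without m4 (0.87, limma adjusted p = 0.0505). With no filter on low values neither YFP+ difference was called (limma adjusted p = 0.187 against YFP- and 0.0831 against unstimulated). The libraries low in Ptpn6 within their group also had a high share of reads on rRNA-like features with Lars2, Mir6236 and Gm23935: 29.8% in YFP+ m3 and 23.2% in YFP+ m4 against 13.8% and 16.3% in the other 2, and 35.4% in unstimulated m4 against 27.5% to 30.8%. On rRNA-like features alone the share was 15.6% in YFP+ m3 but 7.67% in YFP+ m4, against 5.17% and 6.76% in f2 and m2. In unstimulated m4 it was 15.3%, against 12.0% to 14.9%. The part of either share in the spread was not tested. Exons of Ptpn6 share 195 bases (6.96%) with the opposite-strand gene Gm20531, whose level was at most 1.005 CPM.

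Ptpn11 encodes SHP-2, the close relative of SHP-1 (ENSMUSG00000043733; chromosome 5, 121130533 to 121191397, minus strand). Unlike SHP-1 it is also known to promote Ras signalling downstream of growth factor and cytokine receptors. Unstimulated samples were at 4.34, 4.41, 4.44 and 4.49 log2 CPM, YFP- samples at 4.66, 4.89, 4.43 and 4.59, and YFP+ samples at 4.24, 4.53, 4.38 and 4.26. The 3 ranges overlap, with the YFP- sample m2 highest. Its log2 difference was 0.22 for YFP- minus unstimulated (95% interval -0.05 to 0.50, limma adjusted p = 0.159) and -0.07 for YFP+ minus unstimulated (-0.34 to 0.21, adjusted p = 0.678). For YFP+ minus YFP- it was -0.29 (-0.57 to -0.02, limma adjusted p = 0.125). No interval reached the size of the changes in Ptpn6.

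The ratio of Ptpn6 to Ptpn11 reads per kilobase of exon within a sample does not depend on the library total. It was chosen after the values were seen. The ratio was 14.1, 12.2, 12.9 and 7.34 in unstimulated samples, 41.3, 38.4, 38.8 and 36.7 in YFP- samples, and 36.3, 31.2, 12.3 and 21.8 in YFP+ samples. YFP- samples were thus tightly grouped above all others, and the YFP+ sample m3 was again within the unstimulated range. The log2 ratio was higher in YFP- than in unstimulated cells by 1.78 (SE 0.21, 2-sided exact permutation test p = 0.0286, adjusted p = 0.0514 over 9 such tests). It differed between YFP+ and YFP- by -0.72 (SE 0.35, exact permutation p = 0.0286, adjusted p = 0.0514), and between YFP+ and unstimulated by 1.06 (exact permutation p = 0.0857, adjusted p = 0.129). With 4 against 4 samples 0.0286 is the smallest p this test can give, and none of the 9 reached an adjusted p under 0.05.

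Ptpn22, which encodes a phosphatase acting on Src-family kinases and ZAP-70 in lymphocytes (ENSMUSG00000027843; chromosome 3, 103859795 to 103912247, plus strand), was nearly constant in unstimulated samples at 6.00, 6.07, 6.10 and 6.11 log2 CPM. YFP- samples were at 5.70, 7.13, 5.56 and 5.58, so that m2 stood far above the other 3, which lay below every unstimulated sample. YFP+ samples were at 5.80, 5.68, 5.09 and 4.66, all below the unstimulated range. This difference of -0.76 from unstimulated cells (SE 0.32, limma adjusted p = 0.0559) missed the threshold. It passed in a fit of only the 8 samples compared (adjusted p = 0.0172), with quantile normalization (-0.84, 0.0181), and when the totals held no rRNA-like features (-0.84, 0.0289) or also lacked 3 more features (-0.95, 0.0102). It lay farther from the threshold with trimmed-mean scaling (-0.63, limma adjusted p = 0.105) and with no filter (0.301). The same held without the label m3 (-0.68, 0.165) or m4 (-0.53, 0.251). The YFP- group differed from unstimulated cells by -0.08 (limma adjusted p = 0.856), and by -0.46 (adjusted p = 0.118) without its sample m2. YFP+ differed from YFP- cells by -0.68 (95% interval -1.38 to 0.01, limma adjusted p = 0.153), and by -0.31 (adjusted p = 0.419) without that sample. Without the label m2 in any group, Ptpn22 was also called lower in YFP+ than in unstimulated cells, at -0.89 (limma adjusted p = 0.0104).

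Ptpn2 encodes a phosphatase that acts on JAK kinases and STAT proteins downstream of cytokine receptors such as that of IL-15 (ENSMUSG00000024539, protein coding). Its log2 CPM was 5.57, 5.84, 5.71 and 5.35 in unstimulated, 6.09, 6.20, 5.75 and 6.05 in YFP-, and 6.15, 5.89, 5.10 and 5.74 in YFP+ samples. The ranges overlap, and the YFP+ sample m3 is the lowest of all 12. Its difference was 0.41 for YFP- minus unstimulated (95% interval -0.03 to 0.84, limma adjusted p = 0.106), 0.10 for YFP+ minus unstimulated (adjusted p = 0.680) and -0.30 for YFP+ minus YFP- (adjusted p = 0.307). The first of these was called without the label m3, at 0.53 (limma adjusted p = 0.0182), and in a fit of only the 8 samples compared (adjusted p = 0.0251).

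Inpp5d encodes SHIP-1, the lipid phosphatase that removes a phosphate from the product of phosphoinositide 3-kinase (ENSMUSG00000026288; chromosome 1, 87620312 to 87720507, plus strand). Unstimulated samples were at 5.79, 5.90, 6.04 and 5.99 log2 CPM, YFP- samples at 4.98, 5.23, 4.72 and 4.75, and YFP+ samples at 4.06, 4.16, 4.08 and 4.06. The groups do not overlap in any of the 3 comparisons, and the YFP+ samples lie close together. Mean levels were 61.1 ± 4.72 CPM (SD, n = 4), 30.6 ± 5.19 CPM and 17.0 ± 0.585 CPM. Inpp5d fell by 1.01 in log2 in YFP- relative to unstimulated cells (SE 0.13, limma adjusted p = 3.26e-05). In YFP+ cells it fell by 1.84 relative to unstimulated cells, a 3.58-fold lower level (SE 0.13, limma adjusted p = 6.54e-08). YFP+ was below YFP- by a log2 difference of -0.83 (SE 0.13, limma adjusted p = 0.000604), or -0.64 relative to the median of all genes. All 3 calls were made under each alternative tried, with log2 differences between YFP+ and YFP- of -0.57 to -0.89.

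Groups that did not overlap were found for 3 of the 10 genes between YFP+ and YFP- samples, namely Ptpn6, Inpp5d and Dgka, all lower in YFP+, where 22.1% of all genes had such groups (4.31% higher and 17.8% lower). Between YFP- and unstimulated samples they were 1 gene that was higher, Ptpn6, and 2 that were lower, Inpp5d and Cblb, against 52.7% of all genes (30.9% higher and 21.7% lower). Between YFP+ and unstimulated samples they were 5 genes, all lower, namely Inpp5d, Ptpn22, Cblb, Cbl and Dgka, against 54.7% of all genes (24.0% higher and 30.8% lower).

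Cblb and Cbl encode related ubiquitin ligases, of which Cbl-b is known as a brake on NK cell activation. Cblb (ENSMUSG00000022637; chromosome 16, 52031225 to 52208048, plus strand) was at 5.16, 5.40, 5.35 and 5.15 log2 CPM in unstimulated, 5.03, 5.02, 4.86 and 4.79 in YFP-, and 4.57, 4.85, 4.95 and 4.55 in YFP+ samples. Every stimulated sample lay below every unstimulated one, while YFP- and YFP+ overlap. Cblb fell by 0.53 in log2 in YFP+ relative to unstimulated cells (SE 0.13, limma adjusted p = 0.00292), a call that held under every alternative. The fall of 0.34 in YFP- cells (SE 0.13, limma adjusted p = 0.0443) was not called when any replicate label was left out (adjusted p of 0.0554 to 0.145), without the YFP- sample m2 alone (0.0511), with no filter (0.0898) or with no intensity trend (0.0528). YFP+ minus YFP- was -0.19 (95% interval -0.48 to 0.09, limma adjusted p = 0.315).

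Cbl (ENSMUSG00000034342; chromosome 9, 44142976 to 44234049, minus strand) was at 5.16, 5.47, 5.67 and 5.69 log2 CPM in unstimulated, 5.36, 4.998, 4.92 and 5.04 in YFP-, and 4.57, 4.57, 5.11 and 4.87 in YFP+ samples. The label f2 set the overlap between unstimulated and YFP- samples, being lowest in the former and highest in the latter. Cbl fell by 0.72 in YFP+ relative to unstimulated cells (SE 0.17, limma adjusted p = 0.00191), again under every alternative. In YFP- cells it fell by 0.42 (SE 0.17, limma adjusted p = 0.0480), and this was not called without m2 (adjusted p = 0.153), m3 (0.162) or m4 (0.230), without the YFP- sample m2 alone (0.0995), with no filter (0.187) or with no intensity trend (0.0604). YFP+ minus YFP- was -0.30 (95% interval -0.65 to 0.06, limma adjusted p = 0.224). Cbl and Cblb reads per kilobase were of similar size, with a ratio of 0.699 to 1.23 over the 12 samples. This ratio did not differ between groups past the threshold (2-sided exact permutation p of 0.314 to 0.543).

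Ubash3b encodes Sts-1, a phosphatase that binds Cbl and acts on Syk-family kinases (ENSMUSG00000032020; chromosome 9, 41011098 to 41161697, minus strand). Its log2 CPM was 7.15, 7.18, 7.07 and 6.72 in unstimulated, 7.43, 7.85, 7.24 and 7.18 in YFP-, and 8.06, 7.89, 6.98 and 7.27 in YFP+ samples. The YFP+ samples f2 and m2 are the highest of the 12, and the YFP+ sample m3 lies within the unstimulated range. Ubash3b differed by 0.39 between YFP- and unstimulated cells (95% interval -0.10 to 0.88, limma adjusted p = 0.164, or 0.0471 in a fit of only the 8 samples compared) and by 0.52 between YFP+ and unstimulated cells (0.03 to 1.003, adjusted p = 0.0613). Without the YFP+ sample m3 the latter was 0.71 and was called (limma adjusted p = 0.00773), as it was after centring on the sample median (0.64, adjusted p = 0.00486) and trimmed-mean scaling (0.65, adjusted p = 0.0225). It was smaller with quantile normalization (0.34, limma adjusted p = 0.0874) and with rRNA-like and 3 more features left out (0.33, 0.118). Without the label f2 it was 0.39 (0.219) and without m2 0.45 (0.148). YFP+ minus YFP- was 0.13 (-0.36 to 0.61, limma adjusted p = 0.724).

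Dgka encodes diacylglycerol kinase alpha (ENSMUSG00000025357; chromosome 10, 128720134 to 128744855, minus strand). Unstimulated samples were at 4.44, 4.08, 4.22 and 4.75 log2 CPM, YFP- samples at 3.18, 4.24, 2.82 and 3.28, and YFP+ samples at 1.63, 1.92, 0.12 and 0.81. All YFP+ samples lay below the 8 others, and the YFP- sample m2 reached the unstimulated range. Mean levels were 21.0 ± 4.37 CPM (SD, n = 4), 11.2 ± 5.29 CPM and 2.42 ± 1.23 CPM, from 39 to 204 reads in the YFP+ libraries. Dgka fell by 3.25 in log2 in YFP+ relative to unstimulated cells, a 9.51-fold lower level (SE 0.37, limma adjusted p = 4.98e-06). YFP+ was 4.79-fold lower than YFP-, with a log2 difference of -2.26 (SE 0.37, limma adjusted p = 0.000804), or -2.07 relative to the median of all genes. Both calls held under every alternative. The fall of 0.99 in YFP- relative to unstimulated cells (SE 0.37, limma adjusted p = 0.0389) was not called without f2 (-0.90, adjusted p = 0.134), m3 (-0.85, 0.0627) or m4 (-0.83, 0.191), or with no filter (0.255). Dgka shares 105 exonic bases (2.21%) with Pmel on the opposite strand, which was at most at 0.620 CPM.

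Dgkz encodes diacylglycerol kinase zeta, the other isoform with a known role in lymphocyte receptor signalling (ENSMUSG00000040479; chromosome 2, 91932824 to 91975864, minus strand). It was at 6.31, 6.33, 6.42 and 6.49 log2 CPM in unstimulated, 6.76, 6.83, 6.29 and 6.41 in YFP-, and 6.51, 6.67, 6.46 and 6.63 in YFP+ samples, with overlapping ranges. Mean levels were 83.9 ± 5.01 CPM (SD, n = 4), 96.2 ± 17.3 CPM and 95.1 ± 6.51 CPM. YFP+ minus YFP- was -0.0023 (95% interval -0.28 to 0.28, limma adjusted p = 0.993), and the sign changed with the scaling, to 0.26 after centring on the sample median. Both differences from unstimulated cells were 0.18 (limma adjusted p = 0.265 for YFP- and 0.255 for YFP+). The second was called after centring (0.30, adjusted p = 0.0241) and with trimmed-mean scaling (0.31, adjusted p = 0.0283). Dgkz shares 222 exonic bases (3.54%) with Gm9821 on the opposite strand, at most at 1.28 CPM.

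The balance of these 2 kinases within a sample was also compared. Reads per kilobase of Dgka relative to Dgkz were 0.3602, 0.276, 0.285 and 0.392 in unstimulated samples, 0.111, 0.219, 0.118 and 0.151 in YFP- samples, and 0.0445, 0.0486, 0.0161 and 0.0232 in YFP+ samples. The 3 groups did not overlap. The log2 ratio differed by -1.17 between YFP- and unstimulated (SE 0.26), by -2.27 between YFP+ and YFP- (SE 0.44) and by -3.44 between YFP+ and unstimulated cells (SE 0.40), each with a 2-sided exact permutation p of 0.0286 and an adjusted p of 0.0514. This ratio was also chosen after the values were seen.

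**Figure D3:**
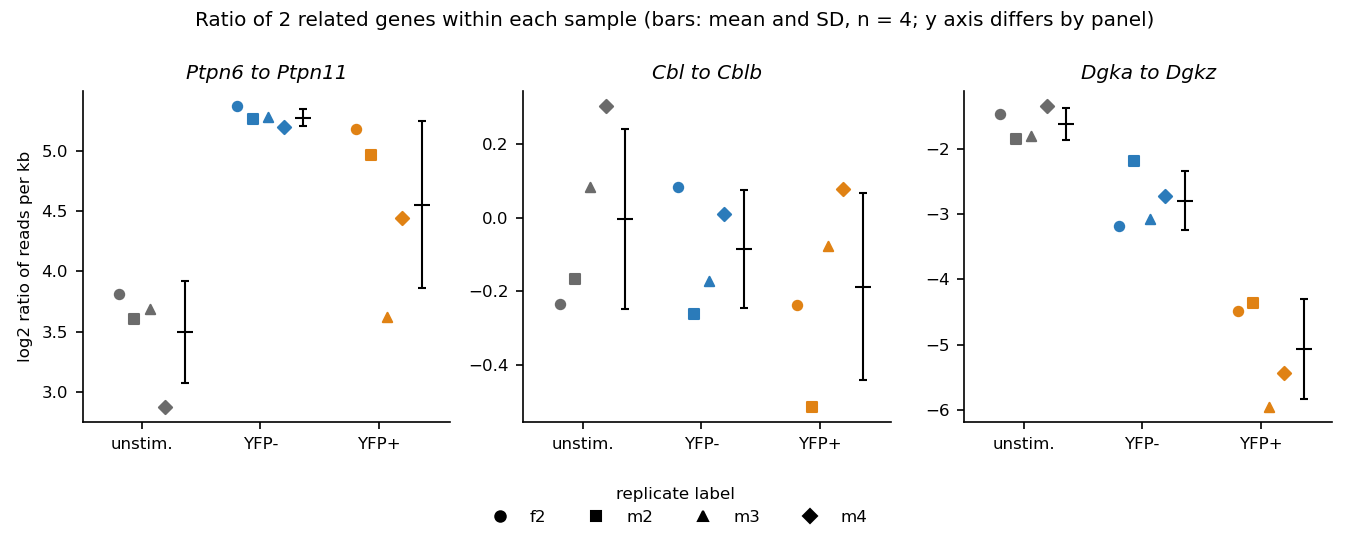
Log2 ratio of reads per kilobase between related genes within each sample (y axis, range differs by panel) in unstimulated, YFP- and YFP+ samples (x axis). Symbols mark the replicate labels and bars the mean and SD of 4 samples. The ratio of Ptpn6 to Ptpn11 is highest in YFP- samples, that of Cbl to Cblb overlaps between groups, and that of Dgka to Dgkz steps down without overlap.

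Compared per kilobase of exon, Ptpn6 was the most abundant of the 10 transcripts in each group by its mean, at 32.9, 130.1 and 69.3 CPM per kilobase in unstimulated, YFP- and YFP+ samples, followed by Ubash3b at 18.0, 23.8 and 26.8. Ptpn6 exceeded Ubash3b within each library, although their ranges overlapped across YFP+ samples. Ptpn2, Dgkz and Ptpn22 followed in that order in every group. The range of Ptpn2 overlapped with those of Ubash3b and Dgkz in each group. Within libraries Ubash3b exceeded Ptpn2 in 4 of 4 unstimulated, 3 of 4 YFP- and 4 of 4 YFP+ samples, and Ptpn2 exceeded Dgkz in 3, 4 and 3 of 4. The lower end was rearranged: in unstimulated samples Inpp5d, at 8.04 CPM per kilobase, was followed by Dgka (4.41), Cbl (3.70), Cblb (3.68) and Ptpn11 (2.85). In YFP+ samples the order was Ptpn11 (2.73), Cblb (2.55), Cbl (2.25), Inpp5d (2.24) and Dgka (0.507), where only Dgka was set apart from its neighbour without overlap.

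Genes with a pattern most like that of a member were sought among 8213 protein-coding genes, by the root mean square difference of log2 CPM centred on each gene's mean over the 12 samples. For Inpp5d, whose own deviation was 0.764, they were Hp1bp3 (0.0895), Eif4e3 (0.0981) and Zfp512 (0.0983). For Ptpn6, with a deviation of 0.915, they were Uap1 (0.199), Irf5 (0.223) and Ccnt1 (0.225). For Dgka, with a deviation of 1.46, they were Osgin1 (0.310), Evl (0.356) and Pitpnc1 (0.364). Irf5, for example, had a mean log2 CPM of 4.61 without stimulation, and of 6.75 in the YFP- and 5.79 in the YFP+ group.

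Relatives and pathway partners outside the 10 genes were described from 5 lists. Over all genes 30.2% were called higher and 20.9% lower in YFP- than in unstimulated cells. Between YFP+ and YFP- these shares were 3.28% and 18.5%. Of 17 other tyrosine phosphatases tested, 3 were higher and 4 lower in YFP- than in unstimulated cells. The receptor phosphatases Ptprs and Ptpre rose by 1.13 and 0.65 in log2 (limma adjusted p = 0.000598 and 0.0178), and Ptpra, which activates Src-family kinases, fell by 1.15 (adjusted p = 2.30e-05). Ptpn18 and Ptpn9 fell by 0.99 and 0.96. The 2 remaining calls, Ptprk at 2.24 and Ptpn4 at -0.80, are named because the count is small, after their values were seen. Ptprk was at low levels, with means of 0.507 CPM in unstimulated and 2.48 CPM in YFP- samples. Between YFP+ and YFP-, Ptprs and the receptor phosphatase Ptprj were higher by 0.93 and 0.78 and Ptpn1 was lower at -0.60 (limma adjusted p of 0.00639 to 0.0394). Ptpn13, named for the small count, was lower at -1.70, with means of only 0.953 CPM in YFP- and 0.316 CPM in YFP+ samples. The median of the list was 0.07 for the former comparison and -0.19 for the latter, beside 0.14 and -0.19 over all genes.

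Of 12 other inositol lipid phosphatases tested, 2 were higher and 2 lower in YFP- than in unstimulated cells (all genes 30.2% and 20.9%). In YFP+ against YFP- cells 0 were higher and 3 lower (all genes 3.28% and 18.5%). Inpp4b, which acts on the product of SHIP enzymes, rose by 0.91 from unstimulated to YFP- cells (limma adjusted p = 0.0280) and was lower in YFP+ than in YFP- at -1.74 (limma adjusted p = 0.00162), with means of 16.4, 32.1 and 10.1 CPM in unstimulated, YFP- and YFP+ samples. Its relative Inpp4a rose by 0.61 in YFP- cells. Synj1 fell by 0.67 in YFP- relative to unstimulated cells and by 0.51 in YFP+ relative to YFP-, and Inpp5k differed by -1.38 in the latter comparison (limma adjusted p of 0.00308, 0.0329 and 0.00533). Inppl1, which encodes the SHIP relative SHIP-2 and is named for the small count, fell by 1.15 in YFP- cells, from a mean of 4.39 to 1.91 CPM. The list medians were -0.23 and -0.39, beside 0.14 and -0.19 over all genes.

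Relatives of the kinases, Cbl proteins and Sts-1 were described by 6 tested genes. In YFP- against unstimulated cells 1 was higher and 1 lower (all genes 30.2% and 20.9%). Between YFP+ and YFP- none was called in limma (all genes 3.28% higher and 18.5% lower), though 2 had an unadjusted p under 0.05. These were Dgkd at 0.44 and Cbll1 at -0.62 (limma adjusted p = 0.0587 and 0.0604), named after their values were seen. Ubash3a, the second Sts gene, fell by 0.82 in YFP- cells (limma adjusted p = 0.0334), from 9.36 to 5.45 CPM. Dgke, named for the small count, rose by 1.01 (limma adjusted p = 0.000377), from 2.13 to 4.32 CPM. The medians were -0.07 and 0.0063, beside 0.14 and -0.19 over all genes.

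Of 18 other proximal negative regulators tested, 6 were higher and 8 lower in YFP- than in unstimulated cells (all genes 30.2% and 20.9%). Ndfip1, an adaptor that activates ubiquitin ligases of the Nedd4 family, rose by 2.36 (limma adjusted p = 0.000352), the adaptor gene Sla by 1.98 (adjusted p = 0.000818) and Tnfaip3, which encodes the inhibitor of NF-kappaB signalling A20, by 1.54 (adjusted p = 5.62e-06). Dok2, whose product recruits a GTPase-activating protein for Ras, fell by 2.01, from 525 to 132 CPM (limma adjusted p = 1.06e-06). Spred2, an inhibitor of the Ras pathway, and Pag1, which anchors the inhibitory kinase Csk at the membrane, both fell by 1.47. Between YFP+ and YFP- 0 were higher and 7 lower (all genes 3.28% and 18.5%). The lower ones were led by Lax1 at -1.15, Sla2 at -1.01 and Dok1 at -0.88 (limma adjusted p of 0.0116, 0.000443 and 0.00105). The medians were -0.10 and -0.43, beside 0.14 and -0.19 over all genes.

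The branch on which diacylglycerol kinases act was described by 20 tested genes. Of these, 4 were higher and 10 lower in YFP- than in unstimulated cells (all genes 30.2% and 20.9%). In YFP+ against YFP- cells 1 was higher and 7 lower (all genes 3.28% and 18.5%). Rasgrp1, the diacylglycerol-activated exchange factor for Ras, fell by 1.17 in YFP- relative to unstimulated cells (limma adjusted p = 9.06e-05) and by 1.30 in YFP+ relative to YFP- (adjusted p = 0.000165), with means of 47.5, 21.1 and 8.53 CPM in unstimulated, YFP- and YFP+ samples. Rasa3, a GTPase-activating protein that switches Ras off, fell by 2.21 and 1.42 (limma adjusted p = 7.67e-06 and 0.000991). Its relative Rasal3 fell by 1.36 in YFP- cells. Prkcd, a protein kinase C that binds diacylglycerol, rose by 1.003 from unstimulated to YFP- cells (limma adjusted p = 0.000627) and differed by -0.88 between YFP+ and YFP- (adjusted p = 0.00456). In YFP- cells Rasa2 rose by 0.83, Prkch by 0.47 and Rasa1, named for the small count, by 0.42. Hras was higher by 0.59 in YFP+ than in YFP- (limma adjusted p = 0.0391). The medians were -0.40 and -0.24, beside 0.14 and -0.19 over all genes.

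**Figure D4:**
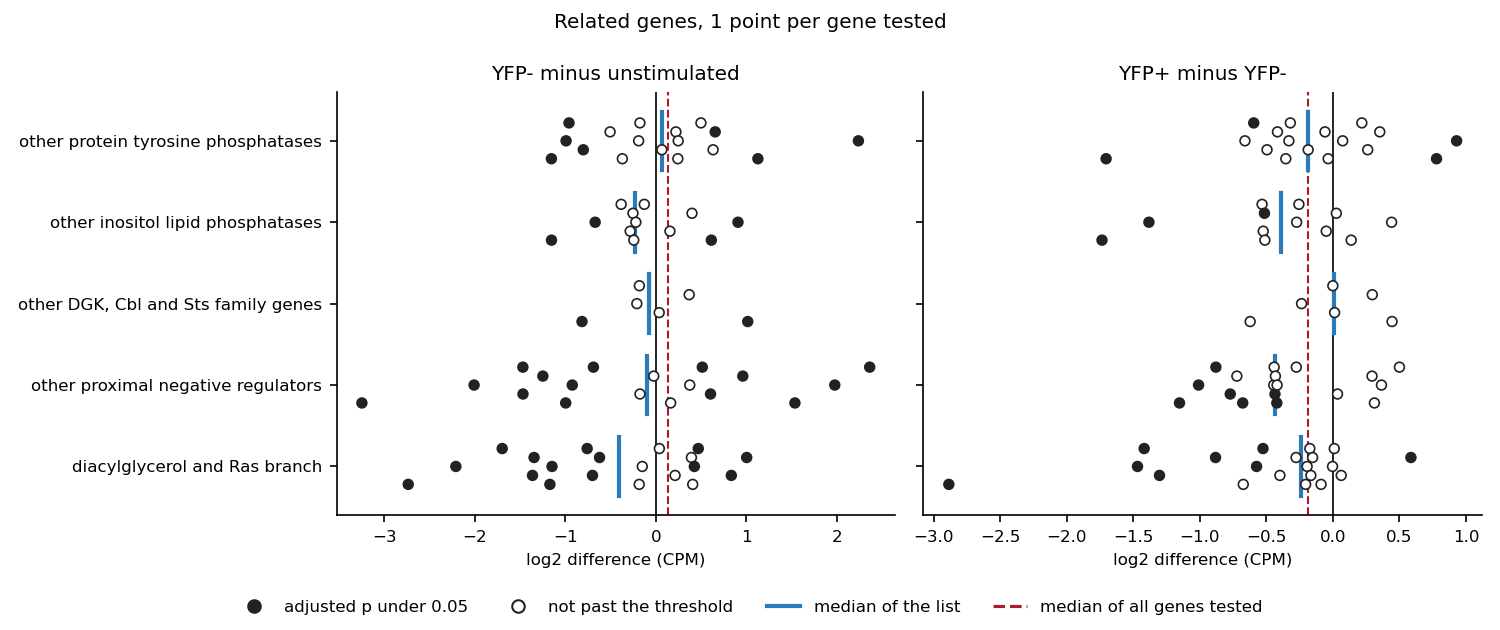
Log2 differences (x axis) of the genes tested in 5 lists of relatives and pathway partners (y axis), for YFP- minus unstimulated and YFP+ minus YFP-, 1 point per gene, filled where the limma adjusted p is under 0.05. Blue bars are list medians and the dashed line is the median of all genes tested. Calls lie on both sides of 0 for YFP- against unstimulated and mostly to the left for YFP+ against YFP-. Over all genes the calls for YFP+ against YFP- also lay mostly to the left, with 405 higher and 2286 lower. That split depended on the scaling, with 1505 and 1491 after centring on the sample median.

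For YFP+ against unstimulated cells the same lists gave 6 higher and 7 lower of 17 other tyrosine phosphatases, 1 higher and 7 lower of 12 lipid phosphatases, 1 and 1 of 6 kinase, Cbl and Sts relatives, 4 and 10 of 18 negative regulators and 3 and 10 of 20 genes of the diacylglycerol branch. Over all genes 27.5% were called higher and 33.3% lower. The list medians were -0.37, -0.53, 0.0036, -0.75 and -0.54 in that order, beside -0.03 over all genes. The single higher lipid phosphatase was Inpp4a at 1.05, and the single kinase, Cbl or Sts relatives were Dgke at 1.01 and Ubash3a at -0.80. The 4 higher regulators were Sla (2.48), Ndfip1 (1.64), Ndfip2 (1.33) and Tnfaip3 (1.09), and the 3 higher genes of the diacylglycerol branch Hras (0.80), Rasa2 (0.66) and Prkch (0.53), in log2 with limma adjusted p of at most 0.00351. These were named because the counts are small.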

How the data were processed

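RNA was measured in 12 samples of mouse NK cells, 4 in each of 3 groups set by the treatment and reporter sort in the labels. Per the labels' protocols, the SMARTer Ultra Low kit was used to make cDNA from total RNA, and the cDNA was sonicated and read as paired ends on a NovaSeq; no strand setting or molecular identifier is given in the sources used here. The submitters' processing notes name bcl2fastq, STAR 2.7.9a, Subread featureCounts 2.0.3 and GRCm38.

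The values deposited by the authors are moderated log2 CPM in 1 table. Of its 55774 lines 287 repeated an earlier one, leaving 55487 features, and 0 columns of values had no sample. Each deposited log2 value is reproduced by a read count with an added prior (0.5 reads, scaled by the library total over 40.74 M) as a share of the total, and whole reads were recovered from 100% of them (tolerance 1e-06 in log2), with no further scaling factor. Floors and read numbers cover counting error only.

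The 12364 genes that exceeded a log2 CPM of 0 in 4 or more samples were fitted in limma 3.58.1 (R 4.3.3) with 1 coefficient per group, contrasts and an intensity trend, over all 12 samples. A gene was called at a Benjamini-Hochberg adjusted p under 0.05 over all genes tested. Permutation tests and ratios used scipy 1.17.1, pandas 2.3.3 and numpy 2.4.6 in Python 3.11.15. Annotation and exon lengths are from GENCODE on GRCm38, which held 99.4% of the identifiers.

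The genes, lists and tests were chosen with earlier results of these data known. Genes named are the 10; per list, at most the 3 called genes with the largest log2 difference per direction for YFP- minus unstimulated and YFP+ minus YFP-, with a mean log2 CPM of at least 2; for genes whose group means differ by at least 1 log2 unit, the 3 protein-coding genes most like them; and Ifng and Klrb1c. Others were named outside this rule where a count was 5 or fewer, after their values were seen. Alternatives were the replicate label as a block, a fit of the 8 samples concerned, a filter set at 2 or dropped, adding 1 CPM before the log, trimmed-mean scaling, quantile normalization, centring, 358 rRNA-like features left out, voom weights, no trend, a threshold of 0.01 and each replicate label left out in turn. Leaving out 3 more features (Lars2, Mir6236 and Gm23935) and single libraries was added after seeing the data.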

Additional observations from a re-analysis of the deposited data

Results flagged for a closer look

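Among 39 sets of 4 values (the 10 genes and the 3 ratios in each group), 2 had a sample whose gap to its nearest neighbour, divided by the range of the group, was past the limit for 4 samples, where 1.95 would be by chance. Ptpn22 in YFP- samples had a value of 0.9126, with m2 at a log2 CPM of 7.13 against 5.56 to 5.70 in the other 3. Inpp5d in YFP+ samples had a value of 0.8529, with m2 at 4.16 against 4.06 to 4.08, a small gap in a tight group. Its calls were made with and without the label m2.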

How the results depend on the processing

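Over 30 gene and comparison results and up to 19 alternatives each, 550 values, 486 kept their direction and side of the threshold, 29 were no longer past it, 16 newly passed it and 19 changed sign. Of 13 calls, 8 held under every alternative run: Ptpn6 for YFP- against unstimulated, Inpp5d in all 3 comparisons, Dgka in YFP+ against both other groups, and Cblb and Cbl in YFP+ against unstimulated.

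For YFP- against unstimulated, 5 genes were called, 2 with no filter, 3 with no trend and 2 at an adjusted p under 0.01. Leaving out replicate labels or its sample m2 gave 2 to 3. A fit of only the 8 samples compared gave 7 (3 higher and 4 lower), which added Ptpn2 and Ubash3b. Over all genes that comparison gave 6321 calls of 12364, 5183 of 55487 with no filter and 6246 with no trend. At an adjusted p under 0.01 there were 4636, with replicate labels left out 4745 to 6191, and in the fit of 8 samples 7123. With the same-label replicate block the count was 4 there, 7 in the comparison of YFP+ with unstimulated and 3 in that of YFP+ with YFP-. Same-label deviations correlated at -0.0587 to 0.3753, not above 0.1 for every pair, and samples correlated best with their own label in 3 of 4 cases between the stimulated groups, and in 1 (YFP-) and 2 (YFP+) of 4 against the unstimulated ones, so the labels were not taken as pairs. Under the block Ptpn22 and Ubash3b were called in YFP+ against unstimulated (limma adjusted p = 0.0244 and 0.0122), and Cbl in YFP- was not (0.0518).

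Signs changed for differences near 0. For YFP+ minus YFP-, Dgkz was 0.26 after centring, 0.15 after trimmed-mean scaling and 0.076 with quantile normalization, and Cblb 0.067 after centring and 0.011 with quantile normalization. For YFP+ minus unstimulated, Ptpn11 was 0.057 after centring and 0.064 with trimmed-mean scaling. With rRNA-like and 3 more features left out, Ptpn2 and Dgkz were -0.088 and -0.012 in that comparison, and Dgkz for YFP- minus unstimulated -0.0008, or -0.070 with quantile normalization. Leaving out replicates, Dgkz for YFP+ minus YFP- ran from -0.077 to 0.083 and Ubash3b from -0.040 to 0.32, Ptpn22 for YFP- minus unstimulated from -0.46 to 0.076, and Ptpn2 for YFP+ minus unstimulated from -0.059 to 0.34. Over all genes, YFP+ against YFP- gave 2691 calls, 1583 with no filter, 1466 at an adjusted p under 0.01, and 1573 and 1629 without m2 and m4. The cause of these changes was not tested.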
